A study of Ovis aries with 36 samples.

Results

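The comparison is between the 2 infraspinatus muscles of 3 sheep that had received nandrolone decanoate throughout, the operated one (END) and the unoperated one of the other side (END-CC), both sampled on the last day. It holds 6 of the 36 libraries of the series, chosen by their titles: END - N22W and END-CC - N22W of animals 2913, 2914 and 2915. All animals were female Swiss Alpine sheep, 2 years old at the start. In each, the tendon of the infraspinatus was detached from the humerus, left free for 16 weeks and then reattached, and the last muscles were taken 6 weeks later. N22W animals were given 150 mg of nandrolone decanoate every week from the release on, for 22 weeks in all, so both muscles of an animal had the same exposure to the drug and differ in the operation. For comparison, CONTROL animals (2901, 2902 and 2903) had the same operations without drug, and N6W animals (2907, 2908 and 2909) were given the same weekly dose only in the 6 weeks after reattachment. The design text gives 6 animals per arm, of which 3 per arm were analysed here. Each library is total RNA of a whole biopsy, so fewer cells of a type and less RNA per cell cannot be told apart.

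The infraspinatus is a muscle of the rotator cuff that turns the upper arm outward and stabilises the shoulder. When its tendon tears, the muscle retracts, loses fibre mass and gains fat and connective tissue, and reattachment often does not restore it. Nandrolone is an anabolic steroid that acts through the androgen receptor and favours muscle protein gain. A muscle of the other side shares the animal, the age, the season and the circulating drug, but it may carry another load after the operation.

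The 6 libraries held 13479392 to 34878946 reads each and detected 16164 to 17356 of the 25197 genes in the files. All values below are reads scaled by the library's size factor, called normalized reads here. Genes are known only by their Ensembl identifiers: 0 of the 25197 could be paired with a name, so neither the markers of muscle fibres and other cell types nor any pathway could be checked. The most abundant gene, ENSOARG00000017195, took 29.9 to 35.7% of the summed values. It stood at 5924000, 6584000 and 6518000 normalized reads on the operated side of 2913, 2914 and 2915, against 5875000, 6690000 and 5737000 on the other side. Its log2 differences within the animals were therefore 0.01, −0.02 and 0.18, and the sides overlapped.

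With 22 weeks of nandrolone, the operated muscle still differed from the muscle of the other side 6 weeks after repair. In a limma fit with the animal as a block, 135 genes were higher (0.822% of the 16417 genes tested) and 128 lower (0.78%) on the operated side at a false discovery rate of 0.05, together 1.6%. The 135 higher genes had a median log2 fold change of 1.17 (range 0.36 to 4.08), and 79 of them were at least 2-fold higher, 36 at least 4-fold. Among the 128 lower genes the median was −0.63 (range −3.04 to −0.35), with 24 at least 2-fold lower and 6 at least 4-fold. The median over all genes tested was 0.05. The 2 directions were thus close to equal in number, while the changes upward were larger. Counting the 263, 3232 genes (19.7%) had an unadjusted p under 0.05.

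**Figure D1:**
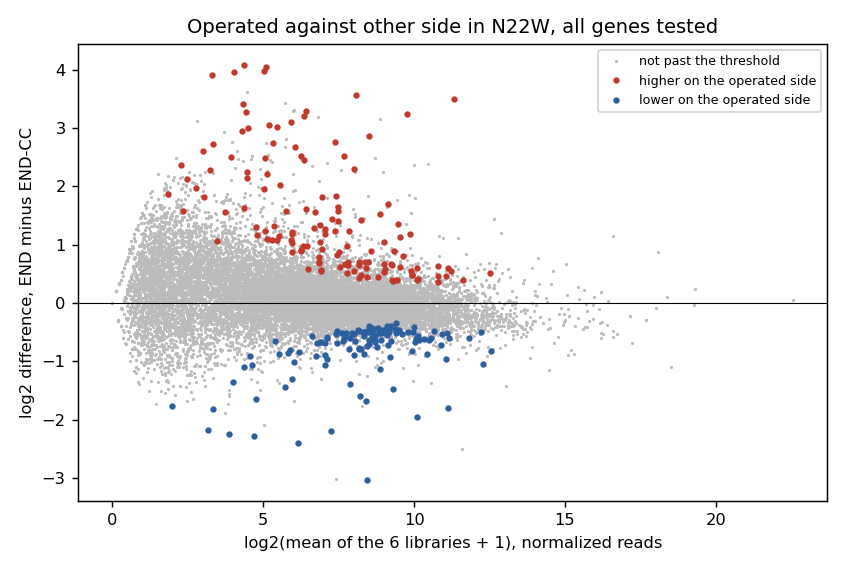
Each point is 1 of the 16417 genes tested, with the log2 of its mean normalized reads in the 6 libraries plus 1 on the x axis and the log2 difference between operated and other side in N22W on the y axis. The 135 higher genes (red) reach a log2 difference of 4.08, and the 128 lower genes (blue) reach −3.04.

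The genes called were mostly of middle abundance. The higher genes had a median of 122 normalized reads and the lower ones of 363, against 84.0 over all genes tested. Of the 6221 genes with a mean of 100 to 1000 normalized reads 66 were higher and 85 lower (2.43%), and of the 1361 genes from 1000 to 10000 it was 12 and 23 (2.57%). Between 10 and 100 normalized reads the balance went the other way, with 47 higher and 17 lower of 4957 genes (1.29%). Below 10 only 13 of 3764 genes passed, and above 10000 it was 0 of 114 (25 at an unadjusted p under 0.05). The limma prior was wide at the top of that class: for the most abundant gene the prior SD was 4.37 on the log2 scale, where its own residual SD was 0.18. edgeR, which uses another model of the spread, also called 0 of the 114. Since 1.6% of all genes tested were called, few of 114 genes would pass at that rate, and the 0 is no result about abundant genes. Whether the prior lowered the count was not tested.

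The genes called made up a small part of the muscle's RNA. The 135 higher genes held 0.377, 0.385 and 0.368% of the summed values on the operated side of 2913, 2914 and 2915, and 0.227, 0.197 and 0.191% on the other side. Those of the 128 lower genes were 0.343, 0.324 and 0.355% on the operated side and 0.534, 0.519 and 0.551% on the other. Within each side the 3 animals were close to each other, and the sides did not overlap for either sum. Both sums are over genes chosen by this comparison and are given as a description.

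The 2 genes of each direction with the largest fold change, among genes called with at least 10 normalized reads on average, are given by animal. They are the extremes of the list, well past its medians of 1.17 and −0.63, and both higher ones reach that average only through the operated side. ENSOARG00000008620 had 10.7, 43.6 and 59.7 normalized reads in the operated muscle of 2913, 2914 and 2915 and 2.57, 0.821 and 0 in the other. All operated muscles lay above all others, although the other side rests on only 3 reads in all. The summed reads gave a ratio of 44.5 between sides, with an exact 95% interval of 15.0 to 218 that covers counting error alone. Its log2 fold change was 4.08 (SE 0.91, limma adjusted p = 0.0361). With a pseudocount of 5 in place of 1 it was 2.6 and missed the threshold (adjusted p = 0.0609), as it did with no animal term (adjusted p = 0.0714). From PRE to TR it rose in N22W (log2 fold change 4.10, limma adjusted p = 0.00466) and in CONTROL and N6W together, both still without drug (3.19, adjusted p = 0.00133).

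ENSOARG00000019246 had 58.3, 62.8 and 63.4 normalized reads on the operated side and 11.6, 3.28 and 0 on the other (log2 fold change 4.05, SE 0.82, limma adjusted p = 0.0228). Operated muscles of the 3 animals were nearly level with each other, and the spread lay on the other side. Before release, this gene had 0 reads in all 3 N22W muscles, and at the end of release it had 71.0, 48.5 and 143 normalized reads. Against a floor of 3 reads per library at PRE it was at least 26.1-fold higher at TR, a rise that passed the test (limma adjusted p = 0.000229). In CONTROL and N6W together its log2 difference from PRE to TR was 0.60 (SE 0.58, limma adjusted p = 0.485), which did not pass. In DESeq2 its side difference of 3.91 missed the threshold (adjusted p = 0.054).

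ENSOARG00000020383 was lower in the operated muscle, with 84.5, 29.5 and 102 normalized reads against 712, 222 and 933 on the other side. The log2 differences of the 3 animals, −3.06, −2.87 and −3.18, were close to each other although the levels were not, and the sides did not overlap. The fold change was −3.04 (log2, SE 0.47, limma adjusted p = 0.0066). ENSOARG00000020383 also fell from PRE to TR in these animals, over 16 weeks of release and drug together. It went from 1161, 915 and 562 to 214, 97.0 and 93.7 normalized reads (log2 fold change −2.74, SE 0.47, limma adjusted p = 0.00107). In CONTROL and N6W together its log2 difference from PRE to TR was 0.03 (SE 0.33, limma adjusted p = 0.964), although its side difference at the end passed in CONTROL (−2.73, SE 0.47, adjusted p = 0.00102).

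ENSOARG00000019026 had 71.9, 14.1 and 6.81 normalized reads on the operated side and 101.4, 94.4 and 128 on the other. In 2913 the log2 difference was only −0.49, against −2.66 in 2914 and −4.04 in 2915. The fold change of −2.40 (log2, SE 0.60) had a limma adjusted p of 0.0445. In edgeR it missed the threshold (−2.22, adjusted p = 0.0649), as it did in limma with no animal term (adjusted p = 0.378). From PRE to TR its log2 difference in N22W was −1.12 (SE 0.60, limma adjusted p = 0.215), which did not pass, and in CONTROL and N6W together it fell by 2.25 (SE 0.43, adjusted p = 0.000803). Whether the release changes of the 4 genes differed between N22W and the other arms was not tested.

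**Figure D2:**
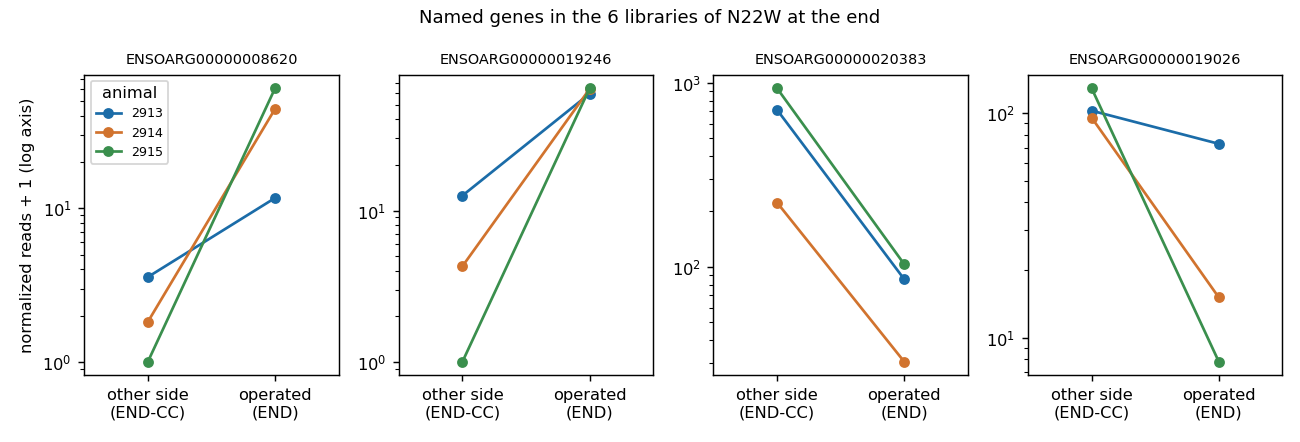
Each panel shows 1 gene, with normalized reads plus 1 on a log axis for the muscle of the other side (left) and the operated muscle (right), and a line for each of the animals 2913, 2914 and 2915. Lines rise in all 3 animals for ENSOARG00000008620 and ENSOARG00000019246 and fall in all 3 for ENSOARG00000020383 and ENSOARG00000019026, with the shallowest slopes of 3 of the genes in 2913.

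All 263 genes called moved the same way in the 3 animals, which held for 46.0% of all genes tested. In 243 of the 263, 124 higher and 119 lower, the sides did not overlap, where 21.3% of all genes tested had no overlap. The 263 were chosen by a paired test on these libraries, so both counts are favoured by the choice and are given as a description. The size of the side differences was summarised for each animal. Over the 12653 genes with a mean of at least 10 normalized reads, the median absolute log2 difference was 0.24 in 2913, 0.29 in 2914 and 0.28 in 2915. In 2913, 505 genes were at least 2-fold higher and 247 at least 2-fold lower on the operated side. The corresponding numbers were 712 and 189 in 2914 and 447 and 124 in 2915. Across these genes, which are not independent replicates, the differences of 2914 and 2915 had a Pearson correlation of 0.57, those of 2913 and 2914 one of 0.47 and those of 2913 and 2915 one of 0.33. With animals of the other arms the correlation ran from 0.23 to 0.45 for 2913, from 0.32 to 0.63 for 2914 and from 0.18 to 0.59 for 2915. Such agreement was thus not particular to N22W.

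The number of genes called rested on all 3 animals. Without 2913, limma called 41 genes, without 2915 it called 1, and without 2914 it called 0 (1863 at an unadjusted p under 0.05). None of the 4 genes named above passed without 2914 or without 2915. The animals of the other arms entered through the estimate of the spread: the count was 39 without 2902, 68 without 2901, 153 without 2903 and 896 without 2909, and the 896 included all 263. Without the animal term it was 38 (25 higher and 13 lower), all of them among the 263.

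Nearly all genes called in N22W had the same direction in the other arms. END against END-CC called 3184 genes in CONTROL (19.4%; 1564 higher, 1620 lower) and 677 in N6W (4.12%; 418 higher, 259 lower). These comparisons share no library with N22W, but all use the same spread per gene. Both lists depended on single animals. CONTROL had 752, 1314 and 978 genes without 2901, 2902 and 2903, and N6W had 318, 1213 and 2 without 2907, 2908 and 2909. In fits of only the END and END-CC libraries of the arm, it was 3712 in CONTROL and 0 in N6W. The 263 genes had the same sign in CONTROL for 261 and in N6W for 260, against 76.2 and 73.0% of all genes tested. Of them, 204 passed in CONTROL in the same direction (77.6% of the N22W list, 6.41% of the CONTROL list) and 89 in N6W (33.8% and 13.1%). Both other arms called 82 of them, and 52 were called in neither, of which 49 had the same sign in all arms. For these last counts no share over all genes tested is given, so they are a description only.

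**Figure D3:**
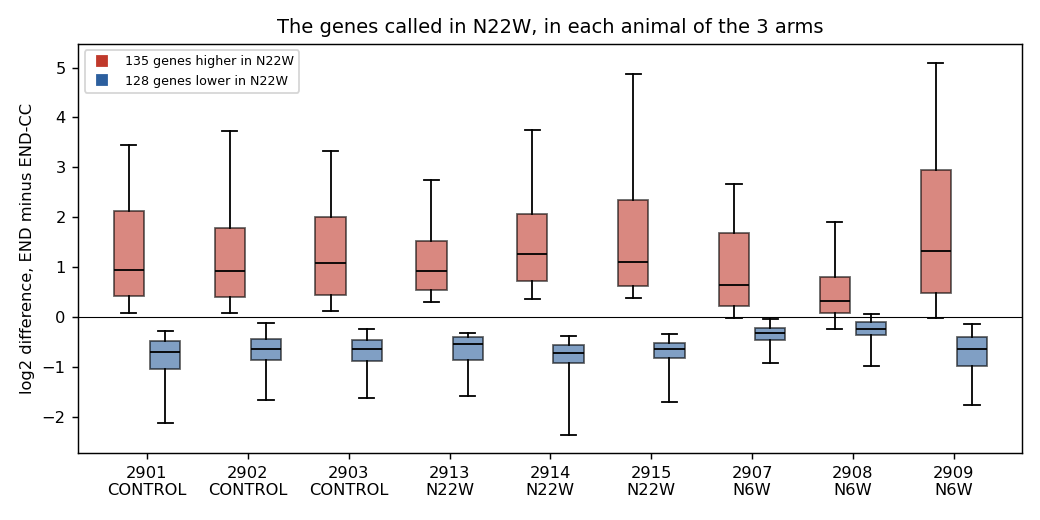
Boxes show the log2 difference between operated and other side for the 135 higher (red) and 128 lower (blue) genes of N22W in each of the 9 animals, with the median, the quartiles and whiskers from the 5th to the 95th percentile. The medians in CONTROL and in 2909 are near those of the N22W animals that chose the genes, and the boxes of 2908 lie nearest to 0.

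Seen gene by gene, the higher genes of N22W had a median log2 difference of 0.93 in CONTROL and 0.85 in N6W, and the lower genes one of −0.63 and −0.40. Since the genes were chosen in N22W, their N22W medians of 1.17 and −0.63 are favoured by the choice. With the choice turned around, the 1564 higher and 1620 lower genes of CONTROL, with medians of 0.99 and −0.55 there, had medians of 0.43 and −0.33 in N22W, and 96.2% of them kept their sign between the arms. For the 418 and 259 genes of N6W, with medians of 1.17 and −0.53 there, the N22W medians were 0.63 and −0.35.

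**Figure D4:**
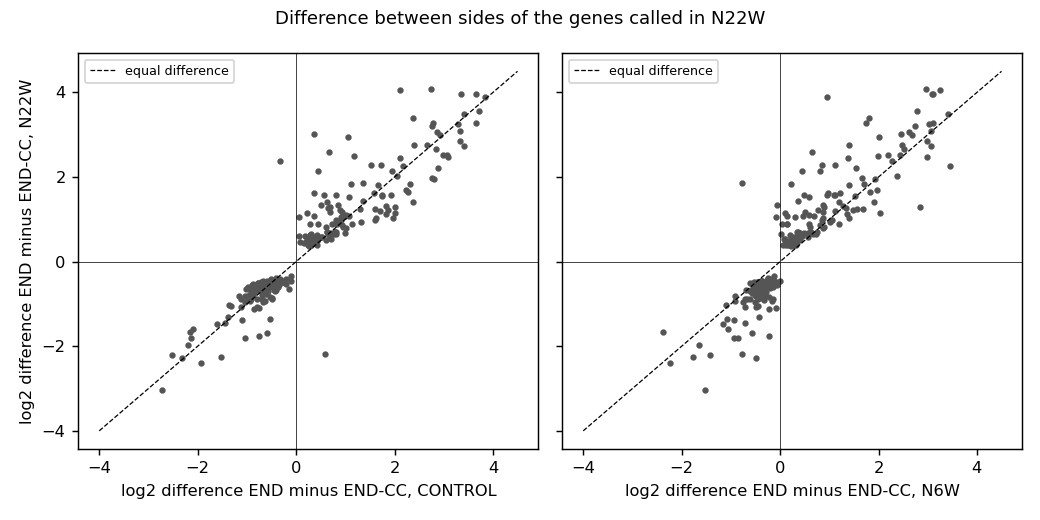
Each point is 1 of the 263 genes called in N22W, with its log2 difference between sides in N22W on the y axis and in CONTROL (left) or N6W (right) on the x axis; the dashed line marks equal differences. Nearly all points share their sign, 261 with CONTROL and 260 with N6W.

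In limma, no gene passed the test of whether the side difference itself differed between the arms. Against CONTROL, limma called 0 genes (753, or 4.59%, at an unadjusted p under 0.05; lowest adjusted p = 0.198; edgeR 0 and DESeq2 2). Against N6W it also called 0 (603, or 3.67%; lowest adjusted p = 0.679; edgeR 0 and DESeq2 0). The larger number of genes called in CONTROL therefore does not show that single genes differed more there. Nor does the test show that the arms were alike: the median SE of such a difference was 0.26 on the log2 scale over the 12653 genes of at least 10 normalized reads. For the 4 named genes, the difference to CONTROL was 1.34 (SE 1.29) for ENSOARG00000008620, 1.94 (SE 1.15) for ENSOARG00000019246, −0.31 (SE 0.67) for ENSOARG00000020383 and −0.46 (SE 0.85) for ENSOARG00000019026. To N6W it was 1.12 (SE 1.29), 0.80 (SE 1.15), −1.52 (SE 0.67) and −0.16 (SE 0.85).

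On the operated side, every N22W muscle was below every muscle of the other arms for ENSOARG00000020383. On the other side, every N22W muscle was also below every CONTROL muscle, while N22W and N6W overlapped. ENSOARG00000020383 had 72.1 ± 37.9 normalized reads on the operated and 623 ± 364 on the other side in N22W (SD, n = 3 each). In CONTROL it had 520 ± 250 and 3296 ± 1199, and in N6W 449 ± 171 and 1526 ± 960. ENSOARG00000019246 stood at 61.5 ± 2.78 and 4.94 ± 5.95 in N22W, at 6.76 ± 5.57 and 0.634 ± 1.10 in CONTROL and at 33.1 ± 50.6 and 0.486 ± 0.842 in N6W. Differences between arms at a given side were not tested for these genes.

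The side difference at the end ran along the earlier change from PRE to TR. In N22W this change spans release, 16 weeks of nandrolone and 16 weeks of time, which cannot be told apart. From PRE to TR in the same 3 animals, 863 genes rose (5.26%) and 1901 fell (11.6%). The fold changes of this comparison use none of the END libraries, but its p-values rest on the spread of all 36 libraries. In a fit of only the PRE and TR libraries of N22W, 333 genes rose and 378 fell. The excess of falling genes depended on the method, with 1231 and 1297 in edgeR, 1286 and 1635 in DESeq2 and 912 and 1395 with TMM scaling. The size of the list depended on the animals, with 381 genes without 2913, 458 without 2915 and 2549 without 2914. Of the 263 genes, 71 had also risen and were higher on the operated side, 81 had fallen and were lower, and 1 had moved in opposite directions. The 152 that went one way are 57.8% of the side list and 5.50% of the release list. Of the genes that had risen, 90.7% were higher on the operated side (55.0% of all genes tested), and of those that had fallen, 89.6% were lower (44.9%). Their median side differences at the end were 0.49 and −0.27, where the release changes that chose them had medians of 1.21 and −0.59.

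Most genes chosen by their release change in other animals also kept its direction, although 2 of the 4 genes named above did not pass there. In CONTROL and N6W, which had received no drug by TR, 1707 genes (10.4%) rose from PRE to TR and 2218 (13.5%) fell. In N22W at the end, 88.3% of the former were higher and 86.9% of the latter lower on the operated side, with median log2 differences of 0.37 and −0.24. Expressed per animal as the mean difference of the genes that rose minus that of the genes that fell, the side difference was 0.54 in 2913, 0.85 in 2914 and 0.91 in 2915, or 0.77 ± 0.20 (SD, n = 3). CONTROL animals had 1.26, 0.95 and 1.21 (1.14 ± 0.17), and N6W animals 0.74, 0.24 and 1.62 (0.87 ± 0.70). The genes of this score were chosen in CONTROL and N6W animals, which may favour those arms over N22W. The N22W values all lay below the CONTROL values and within the range of N6W. This order against CONTROL depended on the genes: with the 2764 genes called in N22W itself, the values were 0.82, 0.99 and 1.03 (0.95 ± 0.11) in N22W and 1.40, 0.97 and 1.13 (1.17 ± 0.21) in CONTROL, and the arms overlapped. No test was made, since 3 against 3 animals cannot give an exact permutation p under 0.1.

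**Figure D5:**
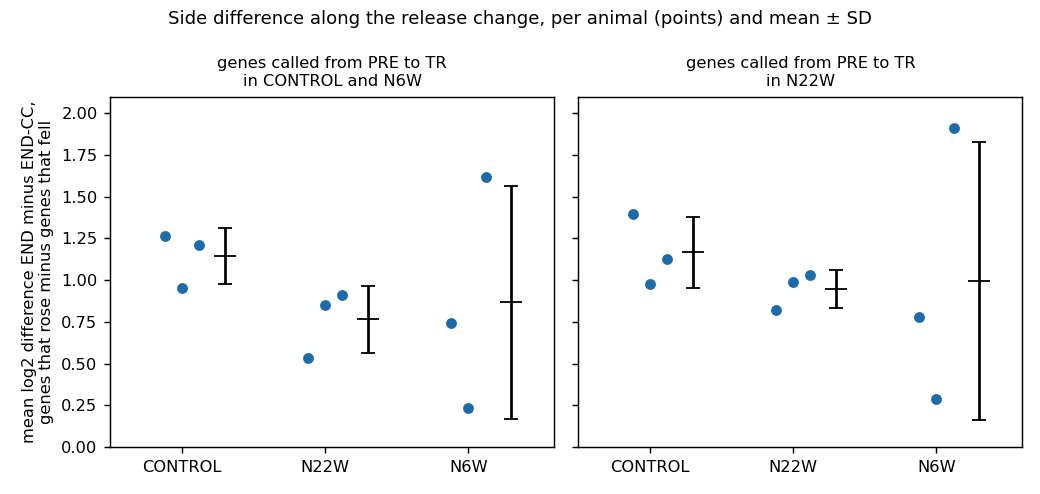
Points are the 9 animals, with the mean log2 difference between operated and other side of the genes that rose during release minus that of the genes that fell on the y axis, and bars give the mean and SD of each arm. With genes chosen in CONTROL and N6W (left) the N22W animals, at 0.54 to 0.91, lie below the CONTROL animals, and with genes chosen in N22W (right) the 2 arms overlap.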

How the data were processed

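The authors deposited 1 signal value per Ensembl identifier and library, 25197 in each file, of a unit that no source here states. Low values sit on a grid with 1 step per library (0.51151 to 1.61525). They were taken as reads over a size factor: multiplied back, 100% of the values up to 100 reads came within 0.1 of an integer in each library. STAR 2.3.0e, R 3.0.2 and Oar_v3.1 appear in the submitters' processing notes; which counter and annotation were used is not given there. The values not being whole counts, the main test was limma 3.58.1 (R 4.3.3) with a mean-dependent prior on log2 of the value plus 1, run on 16417 genes whose median over the 36 libraries reached 0.5. Folds on this scale understate changes of low genes.

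The fit held all 36 libraries, a mean per arm and time point, and the animal. Tests are two-sided with Benjamini-Hochberg adjustment over the 16417 genes. The size factors show 2 sets scaled apart, 12 libraries (PRE and TR of the CONTROL and N22W arms) and 24 (all others), with geometric means of 1.00 each, and no comparison crosses them. The animal pairs the muscles by design. Deviations from group means in the 2 muscles of an animal correlated with r = 0.44, 0.49 and 0.49 in N22W. Libraries of a group were no copies of each other (chi-square per gene 27.2 to 50.2). Each group has 3 animals with 1 library each. The p-values rest on 1 residual spread per gene taken from all 36 libraries after the animal term, moderated by the prior.

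Named genes were the 2 higher and 2 lower ones of largest fold change that passed, had a mean of at least 10 over the 6 libraries and moved alike in 3 animals. Gene lists and markers could not be used without names. The samples, comparisons and rules were chosen with earlier results of these data known. Alternatives were other pseudocounts, filters, TMM scaling, edgeR 4.0.16 and DESeq2 1.42.0 on recovered reads, fewer libraries, no animal term and each animal left out. edgeR called 270 genes between the sides in N22W (115 higher, 155 lower). Fits were tested on simulated data.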

Additional observations from a re-analysis of the deposited data

How the results depend on the processing

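The 263 genes called between the sides in N22W were 246 to 298 with a pseudocount of 0.5 or 5, a median of at least 10, TMM scaling, edgeR or the 18 END and END-CC libraries alone, though of the 267 genes of that last fit only 141 were among the 263. The count moved to 117 with no filter on low values (21641 genes tested), 38 without the replicate block, 714 in DESeq2 and 791 with only the 6 libraries compared. Chosen after seeing the data, a fit of the 24 libraries scaled together gave 74 and a prior without a trend 61. With 1 animal of any arm left out it ran from 0 to 896; where N22W keeps 2 animals, the spread comes from all arms. The difference of sides against CONTROL gave 0 genes in all settings but 2: DESeq2 called 2 (ENSOARG00000014877 and ENSOARG00000021182) and the fit of only the 12 libraries compared called 1 (ENSOARG00000006083), all with a lower difference in N22W and named after their values were seen. It was 0 with each animal left out and 0 without the block (426 at an unadjusted p under 0.05). Against N6W it was 0 in every setting. The mean side difference of release genes in N22W was 0.66 to 0.90 with another pseudocount, TMM scaling or genes called from PRE and TR libraries alone and 0.70 to 0.89 with 1 of its animals left out, against 0.77. No fold change of a named gene changed sign. ENSOARG00000020383 missed the threshold in 2 of its alternatives, ENSOARG00000019246 in 4, ENSOARG00000008620 in 8 and ENSOARG00000019026 in 13. Depth limits ENSOARG00000008620, with 3 reads on the other side. The cause of these shifts was not tested.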

Other observations

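Reads on only 1 of the sides were rare in N22W. A single gene, ENSOARG00000016843, had at least 3 reads in every operated muscle and 0 in every muscle of the other side, and 0 genes had the opposite pattern. It is named after its values were seen. It had 3, 3 and 8 reads in the operated muscles of 2913, 2914 and 2915, or 2.92, 3.84 and 4.19 normalized reads. With 3 reads per library set as the floor for the other side, the mean of the operated side (3.65) was 1.22-fold the mean floor (2.99). This bound is for the means and does not hold within every animal. The gene was chosen by this pattern, so its direction was fixed by the choice.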
